A study of Mus musculus with 24 samples.

Results

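The 10 genes that mark macrophages and Kupffer cells were followed in liver and heart: Adgre1, Clec4f, Cd5l, Marco, Vsig4, Timd4, Cd68, Csf1r, Mrc1 and Cd163. They were chosen by symbol, with earlier results of these data known, and all 10 are among the 15323 genes of the deposited table. A share of the 10 set beside a share of all genes is therefore a description and not a test of the list. The mice combined a nuclear genome with the mitochondrial DNA (mtDNA) of the same or of another strain, and a genotype name gives first the nuclear genome and then the mtDNA. In the conplastic line BL/6J:NZB, the nuclear genome of C57BL/6 mice (written BL/6J) was placed on NZB mtDNA, and its parental line was BL/6J:C57. In the conplastic line NZB:C57, the NZB nuclear genome was placed on C57 mtDNA, and its parental line was NZB:NZB. The conplastic lines came from 10 generations of backcrossing, and nuclear segments that such breeding may leave behind were not examined here. All animals were males aged 10 weeks, 12 per genotype, and carried no other label of treatment. RNA of the median liver lobe and of the left ventricle was pooled in equal parts from 4 animals, which gave 3 pools, each 1 library, per genotype and tissue. A p-value therefore measures how much pools of different animals varied. Pools of the 2 tissues may come from the same mice. Library titles carry the word mix for the BL/6J nuclear genome and rep for the NZB nuclear genome, so handling that went with either word and the nuclear genome cannot be told apart.

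Kupffer cells are the resident macrophages of the liver sinusoids, where they take up bacteria, aged blood cells and debris from portal blood. Clec4f encodes a C-type lectin that in mice is all but restricted to Kupffer cells. Vsig4 encodes a complement receptor that captures opsonised particles, Marco and Cd163 encode scavenger receptors for bacteria and for haemoglobin bound to haptoglobin, and Timd4 encodes a phosphatidylserine receptor for dying cells that marks long-lived resident macrophages. Cd5l encodes a protein that tissue macrophages secrete into plasma and that protects them from apoptosis. Adgre1 encodes the surface receptor most often used to recognise mouse macrophages, Cd68 a glycoprotein of their lysosomes, and Csf1r the receptor for the growth factors encoded by Csf1 and Il34, on which they depend for survival. Mrc1 encodes the mannose receptor, which is made by macrophages and, in liver, also by sinusoidal endothelial cells. Heart tissue has its own resident macrophages, which carry Mrc1, Cd163, Timd4 and Adgre1 but are not Kupffer cells.

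PU.1, the transcription factor that drives macrophage development, binds a short purine-rich core, GAGGAA, known as the PU box. RefSeq promoter windows on GRCm38.p6, running from 250 bases before to 50 after the gene start, were matched for 8 of the 10 genes: Clec4f, Cd5l, Marco, Vsig4, Timd4, Cd68, Mrc1 and Cd163. The letters GAGGAA, or TTCCTC for the other strand, occurred in 5 of these 8 windows, and in 28.3% of all 32851 windows of that length. The 4 windows printed here are shown because their genes differed most in liver, or, for Clec4f, did not pass the test in either conplastic comparison. Each reads 5′ to 3′ on the gene's own strand, and capitals mark the matches. The Clec4f window is chr6:83656067-83656366 on the minus strand and holds 0 matches, and the Cd5l window is chr3:87357631-87357930 on the plus strand with 1 match on the other strand. The Vsig4 window is chrX:96293389-96293688 on the minus strand with 2 matches on its own strand. The Mrc1 window is chr2:14229164-14229463 on the plus strand with 3 matches on the other strand. Among the windows not printed, Marco held 1 match and Cd68 held 1 on each strand, while Timd4 and Cd163 held 0. Marco, Cd68, Timd4 and Cd163 likewise passed neither conplastic comparison in liver. All such matches describe letters and show no binding.
Clec4f: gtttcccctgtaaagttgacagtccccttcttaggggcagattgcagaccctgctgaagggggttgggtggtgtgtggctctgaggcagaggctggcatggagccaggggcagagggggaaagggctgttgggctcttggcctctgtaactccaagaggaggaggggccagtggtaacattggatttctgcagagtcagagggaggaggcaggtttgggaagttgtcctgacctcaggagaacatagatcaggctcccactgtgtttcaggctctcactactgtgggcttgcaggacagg
Cd5l: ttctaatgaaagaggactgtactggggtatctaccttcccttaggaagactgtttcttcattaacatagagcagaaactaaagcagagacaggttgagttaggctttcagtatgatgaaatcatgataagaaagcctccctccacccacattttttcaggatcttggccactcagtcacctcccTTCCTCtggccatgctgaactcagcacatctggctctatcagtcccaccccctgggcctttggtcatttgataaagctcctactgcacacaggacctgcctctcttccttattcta
Vsig4: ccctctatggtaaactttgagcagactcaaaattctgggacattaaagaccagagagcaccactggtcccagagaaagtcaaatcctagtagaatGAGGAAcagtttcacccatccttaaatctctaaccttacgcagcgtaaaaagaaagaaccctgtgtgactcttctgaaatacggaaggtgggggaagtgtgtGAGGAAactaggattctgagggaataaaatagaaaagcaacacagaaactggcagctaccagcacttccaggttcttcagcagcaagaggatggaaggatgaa
Mrc1: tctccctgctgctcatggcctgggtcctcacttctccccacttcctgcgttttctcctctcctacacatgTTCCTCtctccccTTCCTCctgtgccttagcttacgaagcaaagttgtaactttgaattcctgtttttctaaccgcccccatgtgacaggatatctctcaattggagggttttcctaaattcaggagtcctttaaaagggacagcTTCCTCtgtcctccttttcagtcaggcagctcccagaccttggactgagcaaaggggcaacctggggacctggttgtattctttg

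On GRCm38, with GENCODE vM21 gene models, the 10 genes lie at separate loci and all are protein coding. Adgre1 is on chromosome 17 (57358691 to 57483527, 22 exons), Clec4f on chromosome 6 (83644542 to 83656187, 7 exons) and Cd163 also on chromosome 6 (124304656 to 124330527, 17 exons). Cd5l is on chromosome 3 (87357881 to 87371073, 6 exons), Marco on chromosome 1 (120474538 to 120505024, 17 exons), Mrc1 on chromosome 2 (14229392 to 14332057, 30 exons) and Vsig4 on chromosome X (96247203 to 96293438, 7 exons). Timd4 (46810800 to 46844332, 9 exons) and Cd68 (69664213 to 69666153, 6 exons) are both on chromosome 11, and Csf1r is on chromosome 18 (61100598 to 61132149, 21 exons). No member shared more than 0.565% of its words of 31 bases with another gene. The Csf1r level is uncertain because 14.9% of its words lie antisense to another annotated gene and the sources used here do not say that counting used strand.

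Liver libraries held 7294525 to 34974268 reads and heart libraries 3714278 to 12949956. Values are normalised read counts, and whole reads could be recovered from them. The sum of values over all genes was 1048698 to 1068799 in NZB:C57 hearts and 643486 to 726047 in hearts of the remaining genotypes. The 8 cardiomyocyte markers summed to 230755 to 234592 in NZB:C57 hearts and to 25831 to 26185 in NZB:NZB hearts, so heart values of the NZB:C57 line depend strongly on how libraries are scaled. In livers the same cardiomyocyte markers summed to 0.314 to 138 in NZB:C57 and 44.4 to 146 in NZB:NZB, against at most 1.08 in both BL/6J genotypes. Their part in the liver results was not tested.

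All 10 genes were detected in each of the 12 liver libraries. Per kilobase of the longest coding transcript, the median level over the 12 livers was highest for Cd5l (33.0 normalised read counts per kilobase), Clec4f (31.8) and Vsig4 (17.3). Csf1r followed at 10.3, then Cd68 at 6.79, Mrc1 at 6.52, Marco at 4.93, Adgre1 at 4.34, Timd4 at 3.21 and Cd163 at 2.80. The ranges over libraries overlapped in all 9 pairs of neighbours in this order. In hearts the order per kilobase was led by Csf1r (8.92), Cd68 (5.74), Mrc1 (4.72), Adgre1 (4.11) and Cd163 (3.12), with Timd4 (0.978) and Vsig4 (0.641) well below, and again all 9 neighbouring pairs overlapped. Clec4f, Cd5l and Marco were at or near 0 in hearts. Clec4f had 0 to 3 reads per heart library, Cd5l 0 to 7 and Marco 0 to 10, with 4, 3 and 6 of 12 libraries at 0, so the genes closest to the Kupffer cell separated the tissues as the labels say.

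In livers with the NZB nuclear genome, C57 mtDNA in place of NZB mtDNA went with less RNA of 4 receptors, Vsig4, Mrc1, Adgre1 and Csf1r, and with more Cd5l RNA. Clec4f, which like Cd5l marks Kupffer cells, did not pass the test. Cd5l had 194, 167 and 124 normalised read counts in NZB:C57 pools 1, 2 and 3, against 84.4, 64.5 and 60.8 in NZB:NZB pools. Every NZB:C57 pool lay above every NZB:NZB pool, and also above all 6 BL/6J livers, whose highest Cd5l value was 79.3. The log2 fold change was 1.19 (SE 0.17, adjusted p = 0.000494, limma on log2(value + 1), which understates changes of low genes; n = 3 pools per genotype). Values elsewhere are on the same scale and test unless stated, adjusted over all genes of the fit.

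Vsig4, the complement receptor, had 17.3, 15.1 and 10.9 normalised read counts in NZB:C57 livers, against 39.6, 24.5 and 34.9 in NZB:NZB livers. The groups did not overlap, and the log2 fold change was -1.13 (SE 0.22, adjusted p = 0.00489, limma). Mrc1, the mannose receptor, had 35.3, 30.7 and 18.4 in NZB:C57 livers, against 70.7, 52.6 and 54.2 in NZB:NZB livers (log2 fold change -1.08, SE 0.23, adjusted p = 0.00899). All 3 NZB:C57 pools were lower, pool 3 most of all. Adgre1 had 11.8, 9.70 and 9.22 in NZB:C57 livers, against 27.2, 21.2 and 20.2 in NZB:NZB livers (log2 fold change -1.08, SE 0.26, adjusted p = 0.0199). The highest NZB:C57 pool was below the lowest NZB:NZB pool. Csf1r, the growth factor receptor, had 42.9, 39.6 and 33.1 in NZB:C57 livers, against 72.7, 49.3 and 63.2 in NZB:NZB livers (log2 fold change -0.66, SE 0.18, adjusted p = 0.0428). In these bulk samples, fewer cells of a type and less RNA per cell cannot be told apart.

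The other 5 genes missed the threshold, 4 of them with negative fold changes. Cd163 had 12.7, 12.2 and 14.5 normalised read counts in NZB:C57 livers, against 27.4, 19.4 and 22.8 in NZB:NZB livers (log2 fold change -0.76, adjusted p = 0.0523, limma). Timd4 had 6.19, 4.08 and 3.95 in NZB:C57 livers, against 9.5, 7.17 and 6.75 in NZB:NZB livers (-0.63, adjusted p = 0.0867). Neither gene's groups overlapped, although both missed the threshold. The lysosomal Cd68 had 5.64, 7.18 and 3.79 in NZB:C57 livers and 9.69, 8.75 and 6.08 in NZB:NZB livers, and these overlapped (-0.50, adjusted p = 0.235). Marco had 7.29, 9.90 and 8.40 in NZB:C57 livers and 9.14, 12.7 and 8.85 in NZB:NZB livers, also overlapping (-0.23, adjusted p = 0.656). Clec4f had 79.5, 77.4 and 61.6 in NZB:C57 livers and 66.5, 50.5 and 59.6 in NZB:NZB livers, overlapping with a positive fold change (0.30, SE 0.15, adjusted p = 0.298).

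Of the 10 genes, 1 was higher and 4 were lower in NZB:C57 livers, beside 8.09% of all 13159 genes tested that changed (3.65% higher and 4.44% lower). The median log2 fold change of the 10 was -0.64, against -0.00 over all genes tested. In 7 of the 10 the libraries did not overlap, which held for 26.5% of all genes. The calls of Cd5l and Vsig4 held in each fit that left out 1 library. The Csf1r call was lost in 5 of these 6 fits, the Adgre1 call in 4 and the Mrc1 call in 1. Of the 5 calls, 3 were left without NZB:C57 pool 2 or without pool 3, and 2 without NZB:NZB pool 1, where Mrc1 had an adjusted p of 0.0532, Adgre1 of 0.0978 and Csf1r of 0.193 (limma). Scaled to library totals, where the median of all genes moved to -0.22, 1 gene was called higher and 7 lower.

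**Figure D1:**
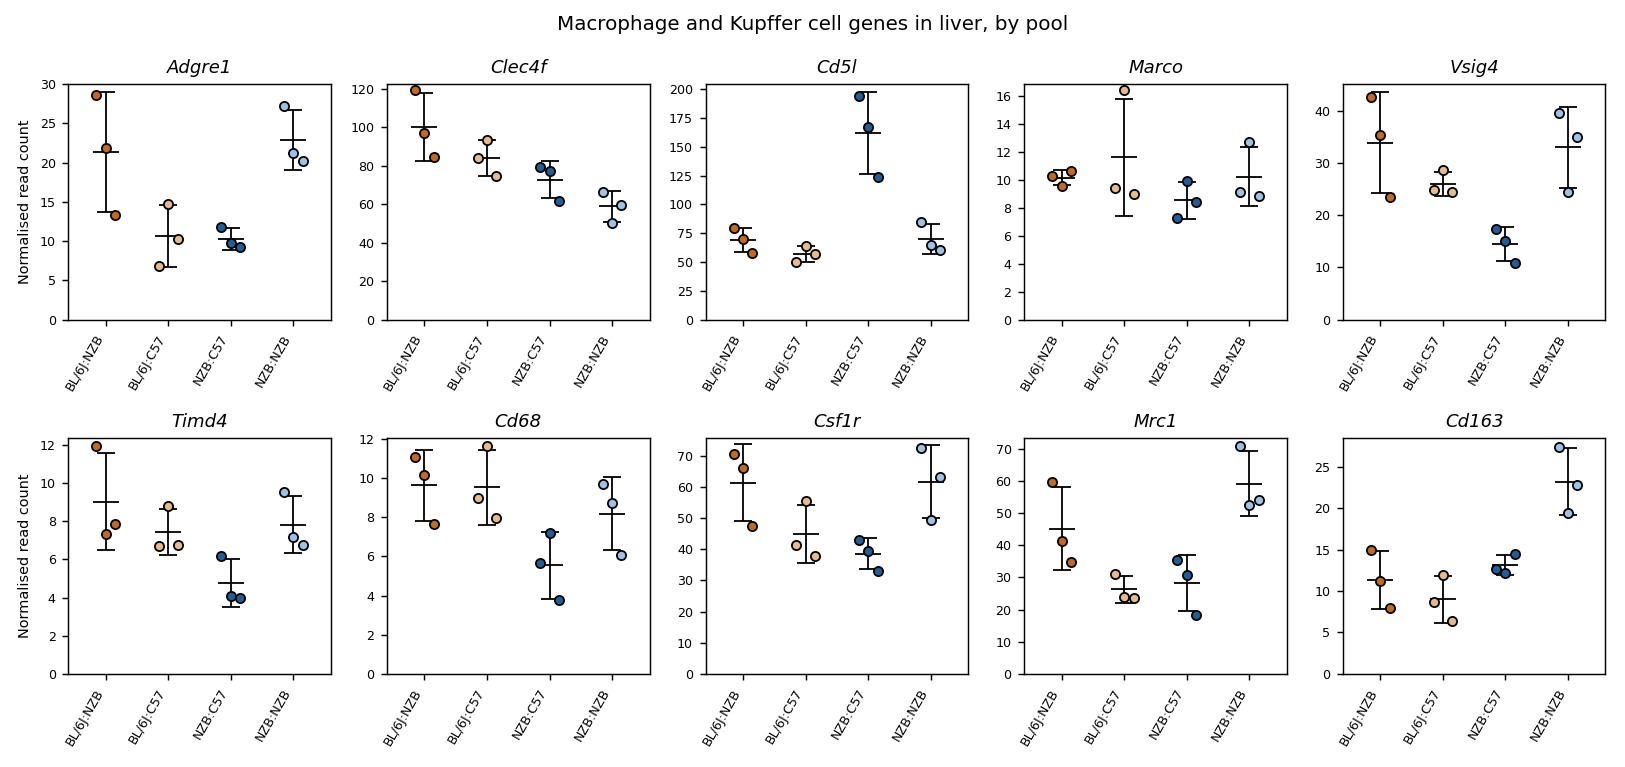
Normalised read counts (vertical axis, starting at 0, a scale per gene) of the 10 genes in the 12 liver pools, by genotype; points are pools, the wide tick is the mean and the bars are 1 SD (n = 3). Cd5l in NZB:C57 pools sits at 124 to 194, above all other pools, while Vsig4 in NZB:C57 sits at 10.9 to 17.3, below all others.

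Since every library counts all 10 genes, the ratio of reads to Clec4f reads does not depend on the scaling of a library. The comparison asks whether the marker genes moved apart from Clec4f. Cd5l had 2.02 to 2.45 reads per Clec4f read in NZB:C57 livers, against 1.02 to 1.28 in NZB:NZB livers. Vsig4 had 0.176 to 0.218 in NZB:C57 livers, against 0.484 to 0.595 in NZB:NZB livers. All 3 NZB:C57 pools were thus above the NZB:NZB pools for Cd5l and below them for Vsig4. Mrc1 had 0.299 to 0.444 reads per Clec4f read in NZB:C57 livers, against 0.909 to 1.06 in NZB:NZB livers. Csf1r had 0.511 to 0.539 in NZB:C57 livers, against 0.977 to 1.09 in NZB:NZB livers, and Adgre1 had 0.125 to 0.150 in NZB:C57 livers, against 0.340 to 0.420 in NZB:NZB livers. All 9 ratios to Clec4f were apart between the lines, 8 lower and Cd5l higher in NZB:C57. With 3 pools against 3, a two-sided exact permutation test gave p = 0.1 for each, the smallest value this design allows. A ratio shows unequal change and not which of its genes moved, and the 9 ratios share Clec4f. Clec4f itself had a positive log2 fold change here (0.30), which lowers each ratio to it in NZB:C57. Marco was apart by the least, at 0.0917 to 0.136 in NZB:C57 livers and 0.137 to 0.251 in NZB:NZB livers. The share of all genes whose ratio to Clec4f was apart was not counted, so 9 of 9 is no result about these genes.

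**Figure D2:**
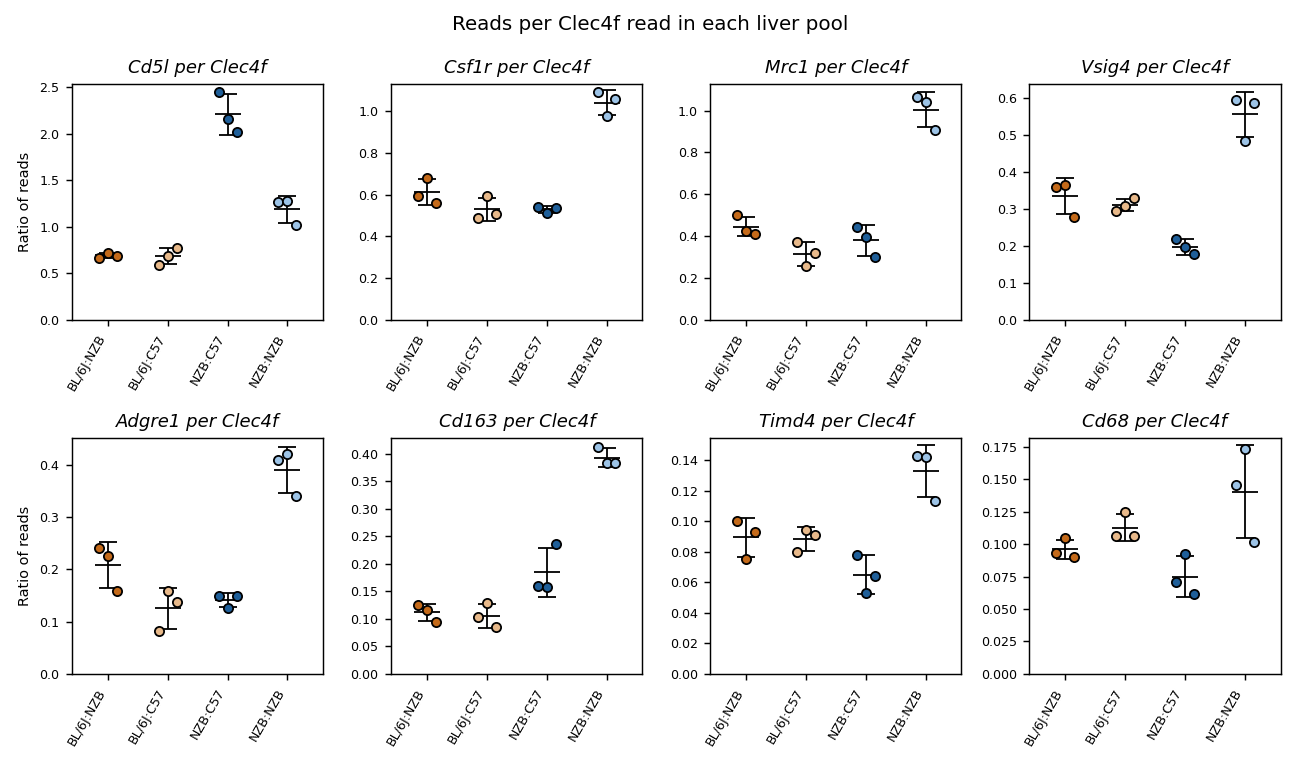
Reads of 8 genes per Clec4f read (vertical axis, starting at 0, a scale per gene) in each liver pool, by genotype; points are pools, wide ticks means and bars 1 SD (n = 3). Cd5l reaches 2.02 to 2.45 in NZB:C57 and 1.02 to 1.28 in NZB:NZB, whereas Vsig4 reaches 0.176 to 0.218 in NZB:C57 and 0.484 to 0.595 in NZB:NZB.

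No member passed the threshold in BL/6J:NZB livers against BL/6J:C57 livers. Of all genes tested, 0.00760% passed. At an unadjusted p under 0.05 there were 3 members, Adgre1, Mrc1 and Csf1r, and 1284 genes, while edgeR called 0 members and DESeq2 called 1. Adgre1 had 28.6, 21.9 and 13.4 normalised read counts in BL/6J:NZB livers, against 6.87, 14.7 and 10.3 in BL/6J:C57 livers. Pool 3 of BL/6J:NZB lay inside the BL/6J:C57 range (log2 fold change 0.94, SE 0.26, adjusted p = 0.333, limma; log2 fold change 1.003, adjusted p = 0.0413, DESeq2). Mrc1 had 59.5, 41.2 and 34.8 in BL/6J:NZB livers, against 31.2, 23.9 and 23.6 in BL/6J:C57 livers. It was the 1 member whose groups did not overlap, as in 12.1% of all genes (0.74, SE 0.23, adjusted p = 0.382, limma).

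The other 8 genes overlapped between both BL/6J genotypes. Csf1r had 70.6, 66.2 and 47.4 normalised read counts in BL/6J:NZB livers and 41.2, 55.3 and 37.8 in BL/6J:C57 livers (log2 fold change 0.44, adjusted p = 0.481, limma). Cd5l had 79.3, 69.9 and 58.2 in BL/6J:NZB livers and 49.9, 64.0 and 57.2 in BL/6J:C57 livers (0.27, adjusted p = 0.613). Clec4f had 119, 97.1 and 84.5 in BL/6J:NZB livers and 84.2, 93.4 and 74.7 in BL/6J:C57 livers (0.24, adjusted p = 0.600). For these 3 genes BL/6J:NZB pool 3 lay below BL/6J:C57 pool 2. Vsig4 averaged 33.9 ± 9.69 in BL/6J:NZB livers and 26 ± 2.30 in BL/6J:C57 livers (SD, n = 3 each), and Cd163 averaged 11.4 ± 3.50 in BL/6J:NZB and 9.01 ± 2.81 in BL/6J:C57. Timd4 averaged 9.03 ± 2.53 in BL/6J:NZB and 7.43 ± 1.2 in BL/6J:C57, and Cd68 averaged 9.62 ± 1.79 in BL/6J:NZB and 9.54 ± 1.91 in BL/6J:C57. The single negative value was that of Marco (-0.13, adjusted p = 0.855, limma), at 10.2 ± 0.566 in BL/6J:NZB and 11.6 ± 4.17 in BL/6J:C57, where pool 2 stood at 16.4. Without that pool the Marco fold change was 0.13. The median log2 fold change of the 10 was 0.29, against -0.01 over all genes. Per Clec4f read, Mrc1 was apart and higher, at 0.411 to 0.499 in BL/6J:NZB livers and 0.256 to 0.370 in BL/6J:C57 livers. Adgre1 per Clec4f read was only just apart and higher, and Cd68 was apart and lower. The ratios of Cd5l, Marco, Vsig4, Timd4, Csf1r and Cd163 overlapped. The share of all genes apart in this way was not counted.

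The conplastic swap brings NZB mtDNA onto the BL/6J nuclear genome and C57 mtDNA onto the NZB nuclear genome, so the conplastic against parental difference of the BL/6J lines minus that of the NZB lines equals the sum of the NZB against C57 mtDNA differences on both nuclear genomes. In liver this sum passed for 5 members, 4 positive and 1 negative, beside 6.66% of all genes (3.58% positive and 3.08% negative). It was 2.02 for Adgre1 (SE 0.37, adjusted p = 0.00430, limma), 1.82 for Mrc1 (SE 0.33, adjusted p = 0.00364), 1.47 for Vsig4 (SE 0.31, adjusted p = 0.0112) and 1.10 for Csf1r (SE 0.26, adjusted p = 0.0205). For Cd5l it was -0.92 (SE 0.24, adjusted p = 0.0373). The Clec4f sum was -0.06 (SE 0.21, adjusted p = 0.902). Without BL/6J:NZB pool 2 or without NZB:NZB pool 3, 3 of the 5 passed, with Csf1r and Cd5l lost. Over the 12 fits that left out 1 library, the Cd5l call was lost in 7 and the Csf1r call in 4.

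Whether the mtDNA difference depended on the nuclear genome was tested as the NZB against C57 mtDNA difference on the BL/6J nuclear genome minus that on the NZB nuclear genome, a test added after the data had been seen. In liver Cd5l alone passed, beside 2.49% of all genes (1.82% positive and 0.669% negative), with a value of 1.46 (SE 0.24, adjusted p = 0.00308, limma). Cd5l passed this test in every alternative fit that could be made. For the receptors the value was -0.80 for Vsig4 (SE 0.31, adjusted p = 0.34), -0.35 for Mrc1 (SE 0.33, adjusted p = 0.842), -0.21 for Csf1r (SE 0.26, adjusted p = 0.896) and -0.15 for Adgre1 (SE 0.37, adjusted p = 0.956). For Clec4f it was 0.54 (SE 0.21, adjusted p = 0.324). No dependence on the nuclear genome was thus shown for the 4 receptors, and their SEs leave room for one.

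The nuclear genomes were compared on the same mtDNA. These comparisons share their libraries with those above, so their values stand side by side and are no further evidence. GRCm38 served for both nuclear genomes, and whether reads of NZB nuclear sequence were counted as fully was not tested, here or in heart. On NZB mtDNA, NZB:NZB livers had more Cd163 (23.2 ± 4.04) than BL/6J:NZB livers (11.4 ± 3.50), with a log2 fold change of 0.99 (SE 0.22, adjusted p = 0.00504, limma). They had less Clec4f, at 58.9 ± 8.03 in NZB:NZB and 100.3 ± 17.6 in BL/6J:NZB (-0.75, SE 0.15, adjusted p = 0.00190). These 2 members were called beside 24.9% of all genes (12.9% higher and 11.9% lower), and they were also the 2 whose libraries did not overlap, which held for 45.3% of all genes. On C57 mtDNA, 3 members were called beside 27.9% of all genes (13.1% higher and 14.8% lower), and 5 did not overlap, beside 38.3% of all genes. Cd5l was higher, at 162 ± 35.4 in NZB:C57 livers and 57 ± 7.06 in BL/6J:C57 livers (1.47, SE 0.17, adjusted p = 2.48e-05), and Vsig4 was lower, at 14.4 ± 3.28 in NZB:C57 and 26 ± 2.30 in BL/6J:C57 (-0.83, adjusted p = 0.0134). Cd68 was lower too, at 5.54 ± 1.7 in NZB:C57 and 9.54 ± 1.91 in BL/6J:C57 (-0.71, adjusted p = 0.0288). Without NZB:C57 pool 3, Cd5l was the 1 call left. Vsig4 then had an adjusted p of 0.0584 and Cd68 of 0.117. The Cd68 call was also lost without NZB:C57 pool 1, BL/6J:C57 pool 1 or BL/6J:C57 pool 2, with adjusted p-values of 0.0552, 0.0559 and 0.113.

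In hearts, 7 of the 10 genes reached a value of 1 in 3 or more libraries and were tested. Adgre1, Cd68, Csf1r, Mrc1 and Cd163 did so in all 12 libraries, whereas Timd4 reached 1 in 9 libraries, on 6 to 50 reads per library, and Vsig4 in 4, on 2 to 28 reads. Vsig4 passed through the NZB hearts, where it was high, so counts over the 7 describe and support nothing further. In hearts with the NZB nuclear genome, Mrc1 and Adgre1 were higher on C57 mtDNA than on NZB mtDNA under the authors' scaling. Mrc1 had 53.9, 56.0 and 43.0 normalised read counts in NZB:C57 hearts, against 39.2, 30.8 and 37.4 in NZB:NZB hearts (log2 fold change 0.50, SE 0.11, adjusted p = 0.00482, limma). Adgre1 had 22.5, 19.3 and 22.3 in NZB:C57 hearts, against 14.8, 11.5 and 14 in NZB:NZB hearts (0.64, SE 0.16, adjusted p = 0.00959). For both genes every NZB:C57 pool was above every NZB:NZB pool.

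The other 5 had positive values under that scaling and missed the threshold. Csf1r had 65.4, 68.3 and 49.2 normalised read counts in NZB:C57 hearts and 52.5, 50.5 and 46.1 in NZB:NZB hearts (log2 fold change 0.28, adjusted p = 0.0919, limma). Cd163 had 23.2, 20.1 and 20.8 in NZB:C57 hearts, against 16.8, 17.7 and 17.6 in NZB:NZB hearts (0.28, adjusted p = 0.245). Csf1r overlapped through NZB:C57 pool 3, and Cd163 did not overlap. Timd4 had 4.08, 4.13 and 3.97 in NZB:C57 hearts, against 3.89, 2.61 and 2.03 in NZB:NZB hearts (0.42, adjusted p = 0.272). Cd68 had 9.85, 10.2 and 7.51 in NZB:C57 hearts and 6.91, 7.48 and 8.79 in NZB:NZB hearts (0.22, adjusted p = 0.490). Timd4 was just apart and Cd68 overlapped. Vsig4 had 1.7, 2.31 and 1.77 in NZB:C57 hearts, against 0.635, 1.39 and 0.845 in NZB:NZB hearts (0.59, adjusted p = 0.0740), apart by a few reads.

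The 2 calls stood beside 15.9% of all 13803 genes tested in heart (13% higher and 2.89% lower). The groups did not overlap for 5 of the 7, against 28.7% of all genes. With library totals in place of the authors' scaling, the median of all genes moved to -0.65 and 6 of the 7 turned negative: Adgre1 to -0.03, Timd4 to -0.12, Mrc1 to -0.19, Csf1r to -0.42, Cd163 to -0.39 and Cd68 to -0.42. Vsig4 stayed positive, at 0.21. Under library totals 0 members were thus called higher and 3 lower, so the direction in these hearts holds relative to the typical gene and not per read sequenced. Without NZB:NZB pool 2 the adjusted p of Adgre1 was 0.0519 and that of Vsig4 0.0372, and without NZB:C57 pool 3 that of Csf1r was 0.00283 (limma). Reads per Csf1r read do not depend on scaling. For Adgre1 this ratio overlapped, at 0.283 to 0.453 in NZB:C57 hearts and 0.228 to 0.304 in NZB:NZB hearts. For Mrc1 it was apart, at 0.821 to 0.874 in NZB:C57 hearts and 0.610 to 0.810 in NZB:NZB hearts. The Mrc1 ratio was also apart and higher in the other conplastic line, at 0.605 to 0.638 in BL/6J:NZB hearts and 0.469 to 0.541 in BL/6J:C57 hearts. A two-sided exact permutation test gave p = 0.1 in each line, the smallest value this design allows. The share of all genes apart in this way was not counted. In the NZB lines the ratios of Vsig4, Timd4, Cd68 and Cd163 overlapped.

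**Figure D3:**
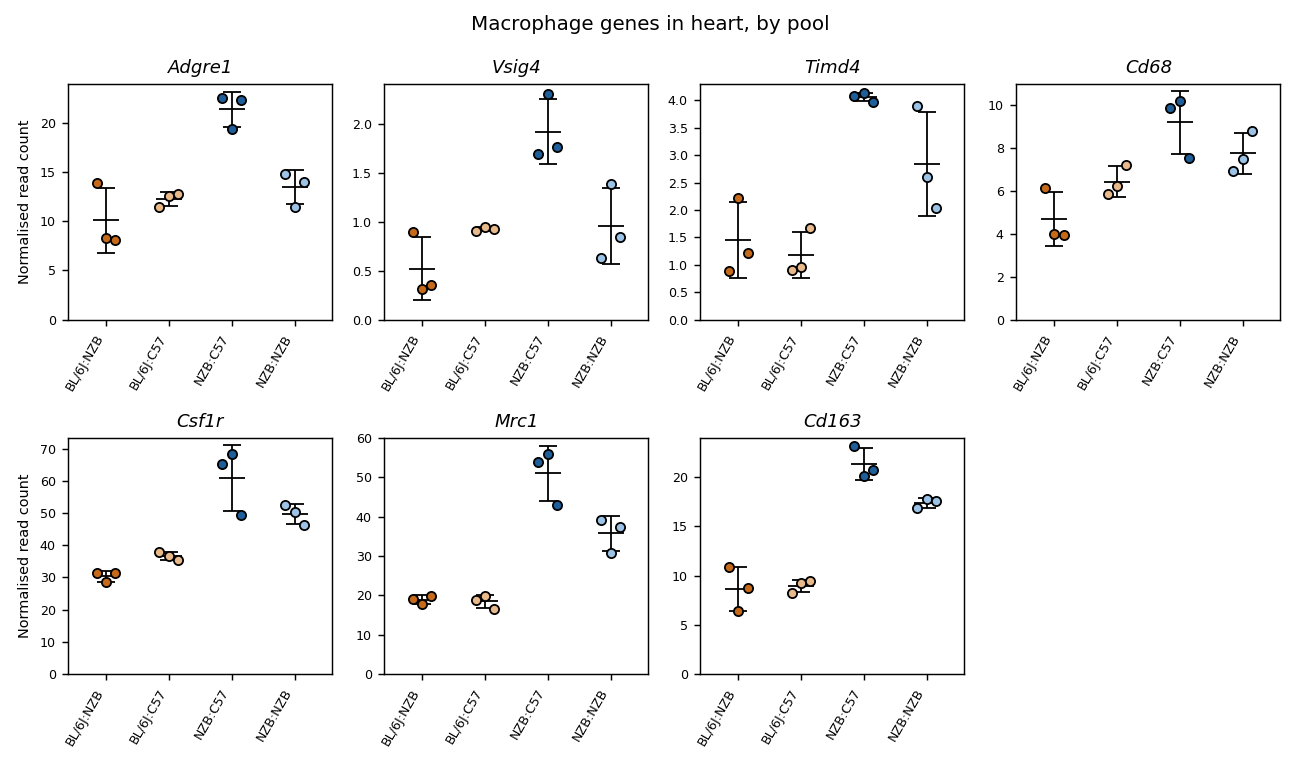
Normalised read counts (vertical axis, starting at 0, a scale per gene) of the 7 tested genes in the 12 heart pools, by genotype; points are pools, wide ticks means and bars 1 SD (n = 3). Mrc1 sits at 43.0 to 56.0 in NZB:C57 hearts and 30.8 to 39.2 in NZB:NZB hearts under the authors' scaling; with library totals its fold change turns negative.

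In BL/6J:NZB against BL/6J:C57 hearts no member passed the threshold, beside 0.935% of all genes (0.427% higher and 0.507% lower), and 2 did not overlap, beside 22.1%. At an unadjusted p under 0.05 there were 2 members, Csf1r and Cd68, and 2340 genes, and edgeR and DESeq2 each called 0 members. Csf1r had 31.3, 28.4 and 31.2 normalised read counts in BL/6J:NZB hearts, against 37.7, 36.7 and 35.5 in BL/6J:C57 hearts (log2 fold change -0.27, SE 0.10, adjusted p = 0.212, limma). Its groups did not overlap. Cd68 had 6.11, 3.97 and 3.94 in BL/6J:NZB hearts and 5.83, 6.20 and 7.21 in BL/6J:C57 hearts (-0.40, adjusted p = 0.235), overlapping through BL/6J:NZB pool 1. Mrc1 was 18.9 ± 1.07 in BL/6J:NZB hearts and 18.5 ± 1.66 in BL/6J:C57 hearts, Cd163 was 8.66 ± 2.26 in BL/6J:NZB and 8.95 ± 0.653 in BL/6J:C57, and Adgre1 was 10.1 ± 3.28 in BL/6J:NZB and 12.3 ± 0.681 in BL/6J:C57 (SD, n = 3 each). In heart, the sum of the NZB against C57 mtDNA differences on both nuclear genomes was -0.93 for Adgre1 (adjusted p = 0.00938), -0.54 for Csf1r (adjusted p = 0.0193) and -0.95 for Vsig4 (adjusted p = 0.0436, limma). These 3 were called beside 14.1% of all genes (2.91% positive and 11.2% negative). Only the Adgre1 call was left without BL/6J:NZB pool 2, NZB:C57 pool 1, NZB:C57 pool 2 or NZB:NZB pool 3, and 0 were called with library totals, where the Csf1r sum was 0.17. Tested for dependence on the nuclear genome, the mtDNA difference passed for Mrc1 alone (0.53, SE 0.16, adjusted p = 0.0432, limma), beside 11.2% of all genes (9.81% positive and 1.42% negative). The Mrc1 call was lost with DESeq2 (adjusted p = 0.0518) and in 9 of the 12 fits that left out 1 library, and held without BL/6J:C57 pool 2, NZB:C57 pool 3 or NZB:NZB pool 1. With library totals the Mrc1 value was -0.13, and Csf1r (-0.66) and Cd68 (-0.82) were the 2 calls.

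Under the authors' scaling, 5 of the 7 genes were higher in hearts of the NZB nuclear genome on NZB mtDNA, and all 7 on C57 mtDNA. On NZB mtDNA, Mrc1 averaged 35.8 ± 4.43 in NZB:NZB hearts and 18.9 ± 1.07 in BL/6J:NZB hearts (log2 fold change 0.88, SE 0.11, adjusted p = 1.88e-05, limma). Cd163 averaged 17.4 ± 0.484 in NZB:NZB and 8.66 ± 2.26 in BL/6J:NZB (0.96, SE 0.14, adjusted p = 8.28e-05), and Csf1r 49.7 ± 3.25 in NZB:NZB and 30.3 ± 1.64 in BL/6J:NZB (0.69, SE 0.10, adjusted p = 8.92e-05). Cd68 (0.64, adjusted p = 0.00855) and Timd4 (0.66, adjusted p = 0.0375) were also higher, and 5 of the 7 tested were called beside 29.1% of all genes (15.5% higher and 13.6% lower). Adgre1 (0.41, adjusted p = 0.0635) and Vsig4 (0.36, adjusted p = 0.22) missed the threshold. The libraries of 4 did not overlap, beside 40.9% of all genes. Timd4 missed the threshold in 4 of the 6 fits that left out a library of these groups, with an adjusted p of up to 0.159. On C57 mtDNA all 7 were called higher beside 35.2% of all genes (22.1% higher and 13.1% lower), and none overlapped, beside 47.5% of all genes. They were led by Mrc1 at 51.0 ± 6.97 in NZB:C57 hearts and 18.5 ± 1.66 in BL/6J:C57 hearts (1.41, SE 0.11, adjusted p = 2.43e-08). Vsig4 was tested only through hearts of the NZB nuclear genome, since its highest value was 0.954 in BL/6J:C57 hearts and 0.894 in BL/6J:NZB hearts. Its place in the counts of 7 was thus favoured by the filter and supports nothing further. The Vsig4 call was lost in all 6 fits that left out 1 library, with adjusted p-values of 0.056 to 0.145, and the Cd68 call in 4 of them, with 0.106 to 0.159. With library totals 3 of these 7 passed, with the median of all genes at -0.53 and Cd68 at -0.07. In the same hearts 8 of 8 endothelial, 7 of 8 stellate and fibroblast, 8 of 8 cardiomyocyte and 4 of 4 erythroid markers were higher and 0 lower, with median log2 fold changes of 0.94, 0.95, 2.32 and 1.73. The summed endothelial level was 1505 to 1670 in NZB:C57 hearts and 806 to 887 in BL/6J:C57 hearts, and the summed stellate and fibroblast level was 4153 to 4238 in NZB:C57 and 1869 to 2128 in BL/6J:C57. Their part in the macrophage values was not tested.

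**Figure D4:**
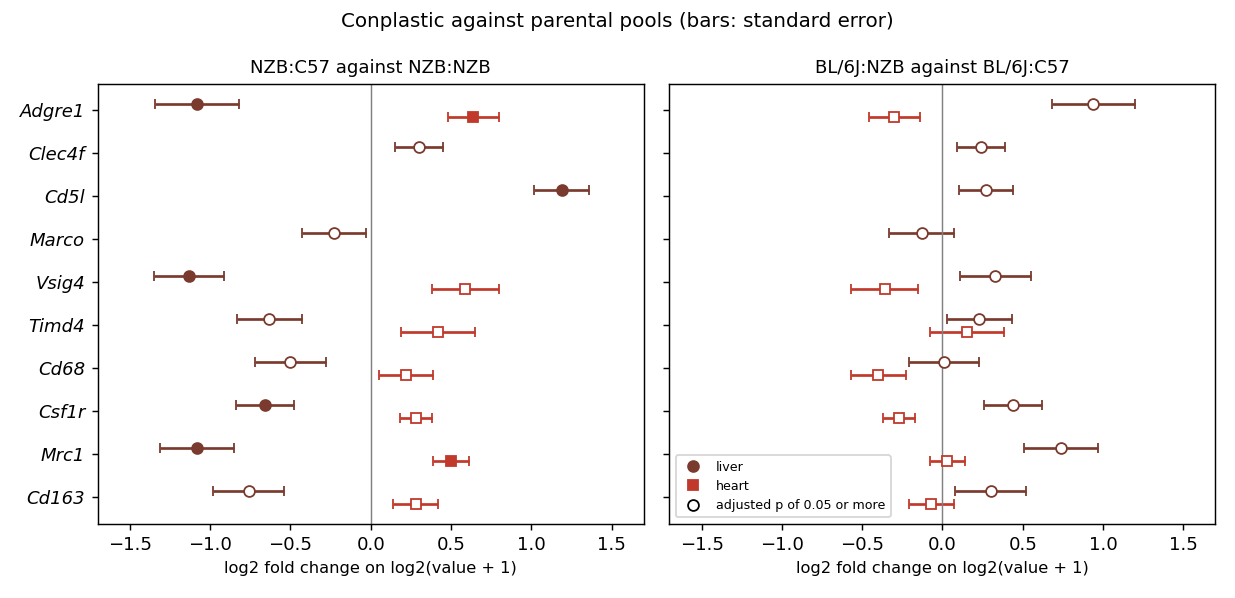
Log2 fold change (horizontal axis, on log2(value + 1), bars 1 SE) of each gene in NZB:C57 against NZB:NZB (left) and BL/6J:NZB against BL/6J:C57 (right); circles are liver, squares heart, and filled symbols passed the threshold. In the left panel the receptors lie left of 0 in liver and right of 0 in heart under the authors' scaling, while Cd5l lies at 1.19 in liver; with library totals 6 of the 7 heart values lie left of 0.

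Under the authors' scaling, all 7 genes tested in both tissues in NZB:C57 against NZB:NZB had negative values in liver and positive values in heart, as did 39.7% of the 12063 genes tested in both, and 82.4% of those genes had opposite signs. Of the 7 heart values 2 passed the threshold, and with library totals 6 of the 7 were negative, as in liver. Heart minus liver, the difference passed for 7 of the 10 members, 6 positive and 1 negative, beside 23.9% of all 14968 genes (16.2% positive and 7.66% negative). It was 1.73 for Vsig4 (SE 0.30, adjusted p = 0.000136, limma), 1.72 for Adgre1 (SE 0.33, adjusted p = 0.000453) and 1.58 for Mrc1 (SE 0.28, adjusted p = 0.000152). It was 1.05 for Timd4 (adjusted p = 0.0162), 1.04 for Cd163 (adjusted p = 0.00811) and 0.93 for Csf1r (adjusted p = 0.00358). The Cd5l difference of -1.29 (adjusted p = 0.000633) sets the liver against hearts with 0 to 7 reads, and its adjusted p was 0.658 with edgeR and 0.590 with DESeq2. With library totals 4 of the 7 calls were left, 3 positive and 1 negative. In the BL/6J lines 0 members passed, beside 0.0735% of all genes (0.0200% positive and 0.0534% negative). At an unadjusted p under 0.05 there were 4 members and 2502 genes. DESeq2 called 1 member, Csf1r (-0.76, adjusted p = 0.0352), and edgeR 0. Without BL/6J:NZB liver pool 3 or BL/6J:C57 liver pool 3, limma called Adgre1, with an adjusted p of 0.0372 or 0.0409.

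Between tissues, Clec4f, Cd5l, Marco and Vsig4 were lower in heart in all 4 genotypes. Heart against liver, 9 members were called lower in BL/6J:NZB, beside 75.9% of all genes called (37.5% higher and 38.4% lower), and 8 did not overlap, beside 78.6%. With TMM within tissues 5 members were called in BL/6J:NZB, and with library totals Cd163 was at 0.47 there. In BL/6J:C57, 7 were called lower, beside 77.0% (37.3% higher and 39.8% lower), and 8 did not overlap, beside 77.4%. In NZB:C57, 5 were called higher and 4 lower, beside 79.5% (39.6% higher and 39.9% lower), and 9 did not overlap, beside 80.3%. In NZB:NZB, 7 were called lower, beside 75.1% (37.8% higher and 37.4% lower), and 8 did not overlap, beside 78.2%. Clec4f summed to 2 to 4 reads over the 3 hearts of a genotype, against 374 to 1876 reads in each liver. Vsig4 averaged 1.92 ± 0.336 in NZB:C57 hearts and 14.4 ± 3.28 in NZB:C57 livers (log2 fold change -2.38, adjusted p = 5.18e-10, limma), and in the other genotypes the fold change was between -3.80 and -4.50. Mrc1 was higher in NZB:C57 hearts (51.0 ± 6.97) than in NZB:C57 livers (28.1 ± 8.70; 0.88, adjusted p = 0.000316), and Adgre1, Csf1r, Cd163 and Cd68 were also higher there. Scaled by library totals or by TMM within tissues, these 5 stayed called higher in NZB:C57 hearts. In BL/6J:C57 and NZB:NZB, Mrc1, Csf1r and Cd68 turned positive under either alternative scaling, reaching 0.45, 0.69 and 0.37 in BL/6J:C57 and 0.15, 0.57 and 0.73 in NZB:NZB with library totals. In NZB:NZB, Adgre1 (0.10) and Cd163 (0.45) were also positive with library totals. No direction between tissues is given for these genes there, nor for Cd163 in BL/6J:NZB.

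Genes of other lists, of macrophages and of other cells, were read in the livers of the NZB nuclear lines. The counts stand beside 3.65% of all genes higher and 4.44% lower in NZB:C57 livers. Of 10 further Kupffer cell genes, 1 was lower in NZB:C57 livers and 0 were higher: Clec1b, a C-type lectin, at 2.63 ± 1.16 in NZB:C57 and 5.04 ± 0.550 in NZB:NZB (log2 fold change -0.79, adjusted p = 0.0317, limma). The median of these 10 was -0.43. Of 12 Csf1r ligand and macrophage transcription factor genes, 2 were lower: Zeb2, a repressor that maintains tissue macrophage identity, at 7.04 ± 1.13 in NZB:C57 and 19.2 ± 2.79 in NZB:NZB (-1.33, adjusted p = 0.000780), and Maf (-0.75, adjusted p = 0.00425). Of 13 scavenger and phagocytic receptors tested, 1 was higher and 7 were lower, among them the fatty acid receptor Cd36, at 13.9 ± 0.560 in NZB:C57 and 42.1 ± 3.46 in NZB:NZB (-1.53, adjusted p = 9.59e-07), and the endothelial hyaluronan receptor Stab2 (-1.03, adjusted p = 0.000741). Of 14 leukocyte and myeloid genes 3 were lower, including Ptprc (-0.71, adjusted p = 0.0233) and Cybb (-0.84, adjusted p = 0.0355). Of 8 lysosomal genes tested, 2 were lower, Ctsd and Lgmn, and of 8 monocyte and neutrophil markers 0 passed, with medians of -0.17 and -0.44.

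Markers of other sinusoidal cells moved with the receptors in these livers, where 4.44% of all genes tested were lower. Stab2 is on both the scavenger receptor list and the endothelial list. Of 10 endothelial markers 6 were lower in NZB:C57, with a median log2 fold change of -1.10, and of 8 stellate cell and fibroblast markers 5 were lower, with a median of -0.90. The summed endothelial level was 154 to 181 in NZB:C57 livers and 308 to 349 in NZB:NZB livers, and the summed stellate and fibroblast level was 116 to 181 in NZB:C57 and 316 to 341 in NZB:NZB. Kdr, the endothelial growth factor receptor, was 24.4 ± 2.87 in NZB:C57 and 65.3 ± 5.99 in NZB:NZB (-1.38, adjusted p = 0.000366, limma). Of 10 hepatocyte markers, 1 was higher and 0 were lower, with a summed level of 206753 to 227884 in NZB:C57 and 185430 to 189288 in NZB:NZB. No marker of these 3 lists was at 0. Their part in the macrophage results was not tested.

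In hearts of the NZB nuclear lines, 4 of 6 cardiac resident macrophage genes were higher in NZB:C57, with a median log2 fold change of 0.83. This and the list counts below stand beside 13% of all genes tested that were higher in NZB:C57 hearts and 2.89% that were lower. F13a1, a clotting factor subunit made by resident macrophages, was 62.2 ± 5.14 in NZB:C57 hearts and 30.3 ± 1.69 in NZB:NZB hearts (1.01, adjusted p = 4.33e-07, limma), and Lyve1 was 32.5 ± 3.44 in NZB:C57 and 17.7 ± 3.23 in NZB:NZB (0.85, adjusted p = 0.000324). Monocyte and neutrophil markers, a separate list, summed to 43.0 to 56.3 in NZB:C57 hearts and 26.1 to 28.9 in NZB:NZB hearts. Only 1 of the 8 tested, Cx3cr1, was called higher and 0 lower, with a median log2 fold change of 0.21. The sum therefore shows no general rise of these markers. Within that sum, the fractalkine receptor gene Cx3cr1 was 23.1 ± 7.16 in NZB:C57 and 6.93 ± 0.951 in NZB:NZB (1.57, adjusted p = 1.65e-05). Of 8 endothelial markers tested 7 were higher, of 8 stellate and fibroblast markers 5, and of 8 cardiomyocyte markers all 8, with median log2 fold changes of 0.75, 0.51 and 3.0. Their part in the macrophage values was not tested, and the shift under library totals given above applies to all of them.

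For each gene, the 2 most like it in liver were found among 9917 annotated genes as those with the smallest root mean squared distance between centred log2(value + 1) values over the 12 livers. Cybb, the phagocyte oxidase subunit, was nearest to Adgre1 (0.234) and second for Vsig4 (0.225) and Csf1r (0.147). Itga9 (0.254) was second for Adgre1. Ctss, a lysosomal protease, was nearest to Vsig4 (0.223) and second for Timd4 (0.161), after Arhgap30 (0.159). Itgal, a leukocyte integrin, was nearest to Csf1r (0.106). Mrc1 was nearest to Adgrf5 (0.119) and Gimap4 (0.146), and Cd68 to Slc11a1 (0.188), a phagosome metal transporter, and Hcls1 (0.192). Cd5l and Clec4f had other neighbours: Gm4952 (0.227) and 1300017J02Rik (0.248) for Cd5l, and Pyurf (0.138) and Slc17a3 (0.155) for Clec4f. Cd163 was nearest to Pira2 (0.192) and Fstl1 (0.197), and Marco to Rabl6 (0.169) and Cflar (0.173). The root mean squared spread of a member about its own mean ran from 0.263 for Marco to 0.605 for Cd5l. A small distance thus says less for Marco than for Cd5l.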

How the data were processed

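Polyadenylated RNA of pooled mouse liver and left ventricle was sequenced, 24 libraries in all. Per the submitters' processing notes, the tools were RSEM 1.2.3, Bowtie2 2.0.6, cutadapt 1.2.1 and edgeR on GRCm38, with no roles given. The deposited unit is a normalised signal, which the authors' column names state. Dividing each library by its smallest step gave whole reads (100% of values, tolerance 0.015 reads). limma 3.58.1 (trend, R 4.3.3) was fitted to log2(value + 1) over the 12 libraries of a tissue, or all 24 for tissue differences, keeping genes that reached 1 in 3 or more of its libraries. P-values were adjusted by Benjamini-Hochberg over all genes tested (threshold 0.05). Alternatives were edgeR 4.0.16 (quasi-likelihood) and DESeq2 1.42.0 on recovered reads, library totals, TMM within tissues, a pseudocount of 0.25, no filter, only the libraries compared, each library left out, and a replicate block. In the labels pools share only a number. Same-numbered pools deviated together in 1 of 16 pairs of groups, BL/6J:NZB and NZB:NZB livers, at correlations of 0.202, 0.205 and 0.165. Whether 1 of 16 is more than unrelated pools would give was not tested. A test of whether the mtDNA difference depends on the nuclear genome was added after the data had been seen. Levels per kilobase used the longest coding transcript. All 10 members were named. From each other list, the named genes are the 2 with the smallest p among those past the threshold, though not all are printed. The members and lists were chosen with earlier results of these data known. Gene models were GENCODE vM21. Members had 21 to 2480 reads per liver library, which limits the precision of the lowest.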

Additional observations from a re-analysis of the deposited data

Results flagged for a closer look

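These results are given because a difference between mtDNA types differed between nuclear genomes or between tissues when that was itself tested (limma, adjusted over all genes).

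Between nuclear genomes, the NZB against C57 mtDNA difference on BL/6J minus that on NZB was 1.46 for Cd5l in liver (adjusted p = 0.00308), and Cd5l passed in every alternative fit that could be made. In heart it was 0.53 for Mrc1 (adjusted p = 0.0432), a call lost in 9 of the 12 fits that left out 1 library and at -0.13 with library totals.

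Between tissues, the NZB:C57 against NZB:NZB difference, heart minus liver, was 1.58 for Mrc1, 1.72 for Adgre1, 0.93 for Csf1r, 1.73 for Vsig4, 1.04 for Cd163 and 1.05 for Timd4. It was -1.29 for Cd5l, a gene with 0 to 7 reads in each heart library. No liver or heart group has 4 or more pools, so single pools were not tested as outliers.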

How the results depend on the processing

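Counts of members called moved beyond 1.5 times as follows. In NZB:C57 against NZB:NZB livers the 5 calls became 3 without a filter on low values and 8 with library totals, and with single libraries left out 2 to 5 (limma). For the sum of the mtDNA differences on both nuclear genomes in liver the 5 became 3 without a filter and 3 to 5 with a library left out. In NZB:C57 against BL/6J:C57 livers, leaving out a library gave 1 to 3 in place of 3. In BL/6J:NZB against BL/6J:C57 livers DESeq2 called 1 in place of 0, as it did for the heart minus liver difference of those lines, where leaving out a library gave 0 to 1. In hearts, library totals gave 3 in place of 7 for NZB:C57 against BL/6J:C57 and 0 in place of 3 for the sum of the mtDNA differences, where leaving out a library gave 1 to 4. The 1 heart call of dependence on the nuclear genome became 0 with DESeq2, without a filter and with a replicate block, 2 with library totals, and 0 to 1 with a library left out. The heart minus liver difference of the NZB lines had 4 calls in place of 7 with library totals, and heart against liver in BL/6J:NZB had 5 in place of 9 with TMM within tissues. Where a value passed the threshold in the reported fit or the alternative, its sign turned under 2 alternatives. With library totals, NZB:C57 against NZB:NZB hearts gave -0.0278 for Adgre1, -0.42 for Cd68, -0.42 for Csf1r, -0.19 for Mrc1 and -0.39 for Cd163, NZB:C57 against BL/6J:C57 hearts gave -0.0722 for Cd68, and the heart sum gave 0.17 for Csf1r, and the heart dependence on the nuclear genome gave -0.66 for Csf1r and -0.13 for Mrc1. Heart against liver with library totals gave 0.47 for Cd163 in BL/6J:NZB, then 0.37 for Cd68, 0.69 for Csf1r and 0.45 for Mrc1 in BL/6J:C57, and 0.10 for Adgre1, 0.73 for Cd68, 0.57 for Csf1r, 0.15 for Mrc1 and 0.45 for Cd163 in NZB:NZB. With TMM within tissues it gave 0.23 for Cd68, 0.53 for Csf1r and 0.30 for Mrc1 in BL/6J:C57, and 0.0123 for Adgre1, 0.63 for Cd68, 0.47 for Csf1r and 0.0581 for Mrc1 in NZB:NZB. These scalings moved the median of all genes, to -0.65 in NZB:C57 against NZB:NZB hearts and to 0.61 to 0.74 between tissues in the BL/6J:C57 and NZB:NZB lines.

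In BL/6J:NZB and NZB:NZB livers, where same-numbered pools deviated together, a replicate block kept both calls between them, Clec4f at -0.75 and Cd163 at 0.99. In the other pairs of groups the pools share only a number: same-number correlations over all pairs ran from -0.216 to 0.205 in liver and -0.154 to 0.144 in heart, and in 1 of 16 pairs every pool was nearest its own number. There the block gave NZB:C57 against NZB:NZB livers 7 calls in place of 5. Vsig4 had 2 to 28 reads per heart library, and Clec4f, Cd5l and Marco did not reach the filter in heart and were not tested there.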

Other observations

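Cd207, a lectin of Langerhans cells that mouse Kupffer cells can also carry, averaged 0.0632 ± 0.0549 normalised read counts in NZB:NZB livers and 2.21 ± 0.371 in BL/6J:NZB livers (log2 fold change -1.59, adjusted p = 0.000285, limma). It averaged 0.0549 ± 0.0951 in NZB:C57 livers and 2.74 ± 1.28 in BL/6J:C57 livers (-1.76, adjusted p = 0.000109). Of the 10 further Kupffer cell genes, 8 were lower and 0 higher in NZB:C57 against BL/6J:C57 livers, beside 14.8% of all genes lower and 13.1% higher. In NZB:NZB against BL/6J:NZB livers 4 were lower and 1 higher, beside 11.9% lower and 12.9% higher. H2-Ab1, a class II antigen presentation gene, averaged 6.89 ± 0.960 in NZB:NZB livers and 25.7 ± 1.07 in BL/6J:NZB livers (-1.77, adjusted p = 2.97e-05). For Cd207 and H2-Ab1 too, whether reads of NZB nuclear sequence were counted as fully on GRCm38 was not tested.

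In NZB:C57 against NZB:NZB livers, 1 of 2 T and NK cell markers tested and 2 of 3 B and plasma cell markers tested were higher and 0 lower, beside 3.65% of all genes higher. Cd3e, a T cell receptor subunit, averaged 4.53 ± 1.07 in NZB:C57 and 0.901 ± 0.0876 in NZB:NZB livers (1.52, adjusted p = 7.46e-05), and the antibody genes Igkc (0.93, adjusted p = 0.00317) and Jchain (0.82, adjusted p = 0.0117) were also higher. In 1 heart library, NZB:C57 pool 2, Marco had 10 reads and Cd5l 7, while both were at 0 in the other NZB:C57 heart pools.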
